A study of Mus musculus with 8 samples.

Results

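ASZ001 is a mouse basal cell carcinoma cell line, and the account below describes its messenger RNA under control conditions. The members are the 2 of 8 libraries of the series whose cells carried a non-silencing shRNA and were treated with DMSO, the solvent control. They were chosen by their labels alone, which give the line as ASZ001, the genotype as control and the treatment as DMSO. The remaining 6 libraries, which carried an shRNA against Tgfbr1, were labelled RasV12, or both, were not used. RNA came from adherent cells. The sources used here give no culture conditions, doses or passage, and do not say whether the 2 libraries came from separate cultures, so the spread between them may be technical. The non-silencing shRNA is part of this baseline, and untransfected cells were not analysed here. Whether the cells also carried an uninduced RasV12 construct is not given in the sources used here. With a single group there is no comparison between conditions and no test.

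Basal cell carcinoma is a skin tumour that arises from cells of the hair follicle and the basal epidermis, and its usual driver is Hedgehog signalling. In that pathway the receptor Ptch1 holds the transducer Smo inactive until a ligand binds, or until Ptch1 is lost, and Gli transcription factors then switch on target genes that include Ptch1, Hhip and Gli1 themselves. The line is known as one derived from a tumour of a mouse that carried a defective copy of Ptch1. Basal keratinocytes are recognised by the keratin pair Krt5 and Krt14 and by hemidesmosomes, which fix them to the basement membrane.

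Counts of an entry were scaled to the total of the library (CPM, the usual short form of such scaled counts) and then divided by the transcript length in the deposited table (CPM per kilobase), and levels of different genes are compared only per kilobase. The libraries held 16233379 and 14130153.5 counts, so that 1 count was worth 0.0616 and 0.0708 CPM. An entry was called expressed at 1 CPM or more in both libraries, which held for 11694 of 24907 entries (47.0%). It was called high when it lay in the top 10% of expressed entries per kilobase, at or above 65.3 CPM per kilobase, which held for 1167 entries (4.69% of all). No count was found in either library for 8873 entries (35.6%), and a gene without a count is written as not detected. For such a gene the limit that 0 counts allow (3 counts) was 0.185 and 0.212 CPM in the single libraries and 0.0988 CPM over both, for counting error only. A further 4102 entries had counts but stayed under 1 CPM in both libraries, and 238 reached 1 CPM in only 1 of them. The median expressed entry stood at 38.1 CPM and 12.9 CPM per kilobase. Counts of list members below are to be read beside the shares of all entries, 47.0% expressed, 4.69% high and 35.6% without a count.

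The libraries were close to each other for most genes. Among 7814 entries with a mean of at least 20 CPM, 99.1% lay within 1.2-fold of each other and the median coefficient of variation was 2.43%. The correlation of log2 CPM was 0.997 across genes, which are not independent replicates. Counts still differed by more than sampling noise, with a chi-square of 2.39 per degree of freedom, and the libraries were kept as 2 samples. That figure covers all expressed entries, with the ribosomal RNA precursor Rn45s (132480 and 77523.5 counts) included. It does not measure the spread of a typical gene. Krt6b, a wound keratin, was the single entry of these that differed over 1.5-fold, at 87.3 CPM in replicate 1 and 46.9 CPM in replicate 2. Rn45s, the ribosomal RNA precursor, followed at 8161 and 5486 CPM, which is 0.816% and 0.549% of the counts. Next in this order were Rpl30 (17.8 and 24.6 CPM), the predicted gene Gm12191 (17.7 and 23.9 CPM) and Lrp1, a lipoprotein receptor with a deposited length of 14800 bases (224 and 168 CPM). Long transcripts were more often higher in replicate 1. Of the 429 such entries with lengths of at least 8000 bases, 71.3% were higher there, against 38.8% of the 399 entries shorter than 1000 bases. The differences were small, with median log2 ratios of replicate 1 over replicate 2 of 0.0483 and -0.0183.

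**Figure D1:**
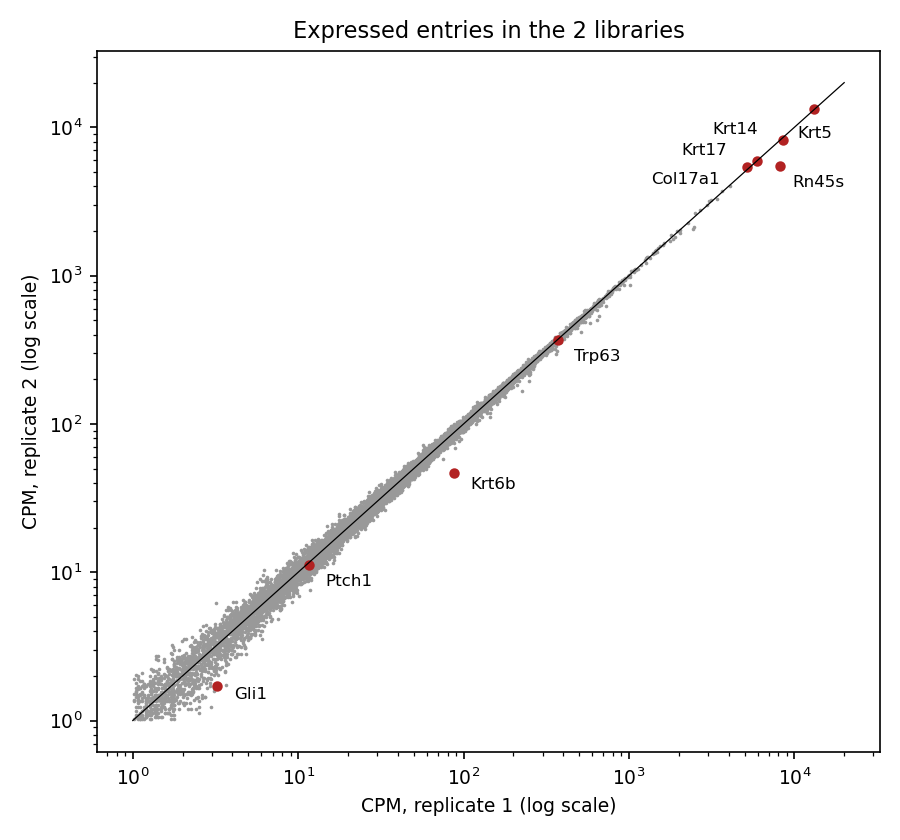
CPM of each expressed entry in replicate 1 (horizontal) and replicate 2 (vertical), both on log scales, with the line of equal values and 9 genes in red. Points spread along the line, Krt5 stands at the top with 13070 and 13227 CPM, and Krt6b (87.3 and 46.9 CPM) and Rn45s lie below the line.

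The most abundant messenger RNAs of these cells were those of basal keratinocytes. Krt5, the basal type II keratin, was first by both measures, at 13070 and 13227 CPM, and alone held 1.31% of all counts. Its partner Krt14 was at 8580 and 8230 CPM, and Krt17, a keratin of the outer root sheath, of wounds and of basal cell carcinoma, was at 5905 and 5882 CPM. Per kilobase the same genes took the first 3 places, at means of 6034, 5094 and 3820 CPM per kilobase. Col17a1, the hemidesmosomal collagen XVII, came next among the messenger RNAs by CPM, at 5202 and 5365 CPM. After it in CPM stood Scd2, a fatty acid desaturase (4082 and 4047 CPM), Eef2, a translation elongation factor (3626 and 3707 CPM), Dst, which encodes the hemidesmosomal protein BPAG1 (3383 and 3299 CPM), and Thbs1, the matrix protein thrombospondin 1 (3139 and 3216 CPM). No single gene dominated the libraries. The 10 most abundant entries held 5.70% of the counts, the 50 most abundant 12.1% and the 500 most abundant 35.0%, and it took 1116 entries to reach 50%.

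Dividing by length changed the order below these leading genes. Only 26 entries were among the 50 highest by both measures. The 50 highest by CPM had a median length of 4010 bases, the 50 highest per kilobase one of 1489.5 bases, and expressed entries one of 2937.5 bases. Ahnak, a giant scaffold protein of 18093 bases, was at rank 14 by CPM and at rank 452 per kilobase. Fat1, a giant cadherin, went from rank 15 to rank 323. In the other direction Rpl41, a ribosomal protein of 443 bases, was at rank 135 by CPM and at rank 5 per kilobase (1395 and 1473 CPM per kilobase). Other short transcripts among the 20 highest per kilobase were Tmsb4x, which encodes the actin-sequestering thymosin beta 4 (1248 and 1229 CPM per kilobase), the metallothioneins Mt1 (1196 and 1228) and Mt2 (1133 and 1146), and Pfn1, profilin 1 (1044 and 1081). Lgals7, the galectin of stratified epithelia, was there too, at 860 and 827 CPM per kilobase.

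Lineage genes were examined by lists, and the first was that of keratins of the epidermis and its wounds, of which 8 of 10 were expressed (47.0% of all entries were) and 6 high (4.69% of all entries). Krt6a, induced in wounds and in the follicle, was at 1845 and 1765 CPM, and Krt16, its usual wound partner, at 361 and 334 CPM. Krt15, a marker of follicle stem cells and of basal cells, was at 145 and 112 CPM. These keratins were thus well above the median expressed gene, and both libraries gave the same order. Keratins of the differentiating layers were low. Krt10 was at 6.75 and 5.10 CPM and Krt1, its partner, at 0.246 and 0.991 CPM, while Krt2, of the uppermost living layers, was not detected. Reads of Krt6a, Krt6b and Krt16 are uncertain, since 49.5%, 50.1% and 37.6% of the 50-base windows of their transcripts also occur in another gene. The same share was 8.52% for Krt5, 14.4% for Krt14 and 4.00% for Krt17.

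Krt5 is the gene with the highest level, and the 150 bases before its start are therefore shown, from RefSeq on build GRCm38.p6 at chr15:101712906-101713055 on the minus strand. Capitals mark a 6-base core element that begins 29 bases before the start. Search letters were TATAAA and ATAAAA on the strand of the gene, from 40 to 20 bases before the start, and 638 of 18092 RefSeq promoters (3.53%) held a match.
Krt5: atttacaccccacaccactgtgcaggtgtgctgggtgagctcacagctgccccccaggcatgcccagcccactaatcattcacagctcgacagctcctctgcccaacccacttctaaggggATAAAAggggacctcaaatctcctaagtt
The match describes the letters of this window only.

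Over the whole keratin family, 16 of 55 genes were expressed and 14 were not detected (35.6% of all entries were not), and the 10 epidermal and wound keratins alone held 3% and 2.96% of the counts. Below Krt6b the family fell steeply. Krt75, of the companion layer of the follicle, was at 15.2 and 14.4 CPM, the hair keratin Krt85 at 6.50 and 5.98 CPM, and Krt32, another hair keratin, at 6.16 and 7.71 CPM. Krt42 (8.35 and 7.89 CPM) and Krt90 (7.88 and 8.17 CPM) were at similar levels, and Krt80 (3.79 and 5.59 CPM), Krt13 (3.54 and 2.97 CPM) and Krt72 (2.83 and 2.97 CPM) were the lowest called expressed. Keratins of simple epithelia, which line glands and ducts, were near or below the detection limit. None of 6 was expressed, and their summed level was 0.339 and 1.56 CPM. Krt18 and Krt20 were not detected, Krt8 was at 0.185 and 0.354 CPM, Krt19 at 0.154 and 0.672 CPM, Krt7 at 0 and 0.318 CPM and Krt23 at 0 and 0.212 CPM. Of these, Krt8 shared 26.9% of its windows with another gene and Krt18 0.720%, and the others shared none.

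Genes of the hemidesmosome and of laminin-332, its ligand in the basement membrane, were all expressed (9 of 9) and 8 of them were high. Behind Col17a1 and Dst came Itgb4, the beta 4 integrin (1944 and 1991 CPM), with its partner Itga6 at 415 and 402 CPM. The laminin-332 chains Lamb3 and Lama3 stood at 939 and 952 and at 849 and 848 CPM. Plec, the plectin linker, was at 874 and 880 CPM but under the cut for high per kilobase (58.6 CPM per kilobase), as its transcript is long. Among desmosomal cadherins Dsg3 and Dsc3, of basal layers, stood above Dsg1a, Dsg1b and Dsc1, of upper layers, by CPM. Of 17 desmosome genes 13 were expressed, with Perp, a membrane protein of the desmosome, at 1074 and 1051 CPM, Jup (plakoglobin) at 1288 and 1326 CPM, Dsp (desmoplakin) at 1995 and 2005 CPM and Pkp1 (plakophilin 1) at 950 and 955 CPM. Dsg3 and Dsc3, the cadherins of basal layers, were at 622 and 623 and at 393 and 372 CPM. Those of upper layers were low, with Dsg1a at 3.82 and 3.86 CPM, Dsg1b at 14.4 and 12.1 CPM, and Dsc1 at 0.370 and 0.708 CPM. Dsg4 (0.770 and 0.106 CPM), Dsg1c (0.154 and 0.283 CPM) and Dsc2 (0 and 0.142 CPM) also stayed under 1 CPM. How far sequence shared among the Dsg1 genes affects their single values was not tested. Of the adherens junction and epithelial adhesion genes 11 of 12 were expressed. Cdh1, E-cadherin, was at 498 and 485 CPM and Cdh3, the P-cadherin of basal cells and follicles, at 555 and 591 CPM. Ctnnb1, beta-catenin, was at 908 and 894 CPM and Epcam, a surface protein of many epithelial tumours, at 182 and 170 CPM. Cldn7, a claudin of simple epithelia, was at 0.0616 and 0.212 CPM.

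Among epidermal transcription factors 15 of 17 were expressed. Trp63, the master regulator of stratified epithelia, was at 371 and 367 CPM. Klf4, better known for barrier formation, was at 243 and 252 CPM, and Esrp1, an epithelial splicing regulator, at 314 and 302 CPM. Tfap2a, a factor of the embryonic surface ectoderm and of keratinocytes, was at 161 and 159 CPM. Grhl3 and Zfp750, factors of late differentiation, were low, whereas Klf4 was not. Grhl3 was at 1.82 and 2.23 CPM and Zfp750 at 0.524 and 0.531 CPM, and Tfap2b was not detected.

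Factors of the hair follicle and of basal cell carcinoma were expressed in 17 of 20 cases. Sox9, required for follicle stem cells and found in basal cell carcinoma, led them at 408 and 414 CPM and was the only one called high. Nfib, Foxc1, Vdr (the vitamin D receptor) and Cux1 followed per kilobase, at 598 and 577, 162 and 159, 159 and 168, and 446 and 444 CPM. Lhx2, a factor of the follicle bulge, was at 0.616 and 0.212 CPM, Tbx1 at 0.0924 and 0.106 CPM, and Foxi3, of the hair placode, was not detected. In a list of 9 surface genes associated with follicle stem cells 6 were expressed (66.7%, against 47.0% of all entries). The list is not limited to genes used to sort these cells. The integrins Itgb1 (1251 and 1267 CPM) and Itga3 (809 and 844 CPM), the receptor Lgr4 (442 and 413 CPM) and Cd44 (391 and 399 CPM) were high, and Lrig1, of the upper follicle, was at 65.0 and 72.4 CPM. Lgr6 was at 9.24 and 8.24 CPM. The bulge markers Lgr5 (0.154 and 0 CPM), Cd34 (0 and 0.0354 CPM) and Cd200 (0.154 and 0.177 CPM) were under 1 CPM in both libraries.

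Of 25 squamous differentiation genes 10 were expressed (40%, near the 47.0% of all entries), none was high, and 4 were not detected, with a median of 0.254 CPM per kilobase. Dmkn and Sbsn, secreted proteins of the suprabasal epidermis, were the highest at 131 and 133 and at 81.2 and 93.0 CPM. Abca12, the lipid transporter of the barrier, was at 35.6 and 32.3 CPM. Of the precursors of the cornified envelope, Sprr1a was at 4.13 and 4.18 CPM and Sprr1b at 2.80 and 3.72 CPM. Lor (loricrin) was at 2.43 and 2.51 CPM and Ivl (involucrin) at 0.277 and 0.814 CPM. The annotated Abca12 transcript nearest in length has 9137 bases, so these CPM do not order the precursors against Abca12. Sprr2d, Sprr3, Hrnr and Lce1a1 were not detected, and Flg2, Cnfn, Klk7, Alox12b, Tgm3, Calm4, Krtdap, Sprr2a1 and Casp14 stayed under 1 CPM in both libraries. Members of the Sprr family share sequence, so their single values are uncertain.

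Mesenchymal genes gave a mixed picture, with 9 of 15 expressed (60%, against 47.0% of all entries). Fn1, fibronectin, was at 1889 and 1828 CPM and high per kilobase, Cdh2, N-cadherin, was at 256 and 265 CPM, and Snai2, a repressor also made by basal keratinocytes, at 74.0 and 73.2 CPM. Vim, the intermediate filament vimentin that most cultured mesenchymal cells contain in abundance, was at 1.36 and 0.248 CPM. No window of the Vim transcript occurs in another gene. Twist1 was at 10.7 and 10.7 CPM, Zeb1 at 5.57 and 4.67 CPM and Zeb2 at 7.36 and 6.55 CPM. Snai1 (0.0616 and 0 CPM) and Prrx1 (0.0616 and 0 CPM) were at the level of 1 count, and Twist2 was not detected.

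Markers of other cell types were examined in 6 lists. Of 55 markers 9 were expressed (47.0% of all entries were), none was high (4.69% of all entries) and 29 were not detected (35.6% of all entries). In the fibroblast list Dcn, decorin, was at 1.79 and 2.41 CPM, Col1a1 at 0.647 and 0.318 CPM and Col1a2 at 0.246 and 0.142 CPM, while Col3a1, Lum, Dpt, Pdgfrb, Thy1 and Fap were not detected. In the immune list Cd68 (7.45 and 8.70 CPM) and Cd14 (5.67 and 5.91 CPM) were expressed. Ptprc, the pan-leukocyte gene CD45, was at 0.154 and 0.212 CPM, and Cd3e, Cd4, Ms4a1, Cd207, Tyrobp and Laptm5 were not detected. Pecam1, an adhesion gene of endothelium, was at 36.1 and 36.9 CPM, although Cdh5 was at 0 and 0.0354 CPM and Kdr, Emcn and Cldn5 were not detected. Mitf, which also has forms outside pigment cells, was at 49.0 and 46.7 CPM and Pmel at 5.94 and 6.19 CPM, while Tyr, Tyrp1, Dct, Mlana, Sox10 and Kit were not detected. Sox2, a factor of Merkel cells, the dermal papilla and squamous carcinoma, was at 92.1 and 94.3 CPM, Ncam1 at 56.2 and 56.5 CPM and Isl1 at 1.23 and 1.49 CPM, while the Merkel factor Atoh1, Chga and Krt20 were not detected. No muscle marker was expressed, and Myod1, Myog, Ckm and Actc1 were not detected. The expressed markers include Pecam1, Pmel, Dcn and Cd68, while most members of their lists were not expressed. Expressed were 1 of 10 fibroblast, 2 of 13 immune, 1 of 8 endothelial and 2 of 8 pigment cell markers. In which cells of the culture the expressed markers lie was not tested.

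**Figure D2:**
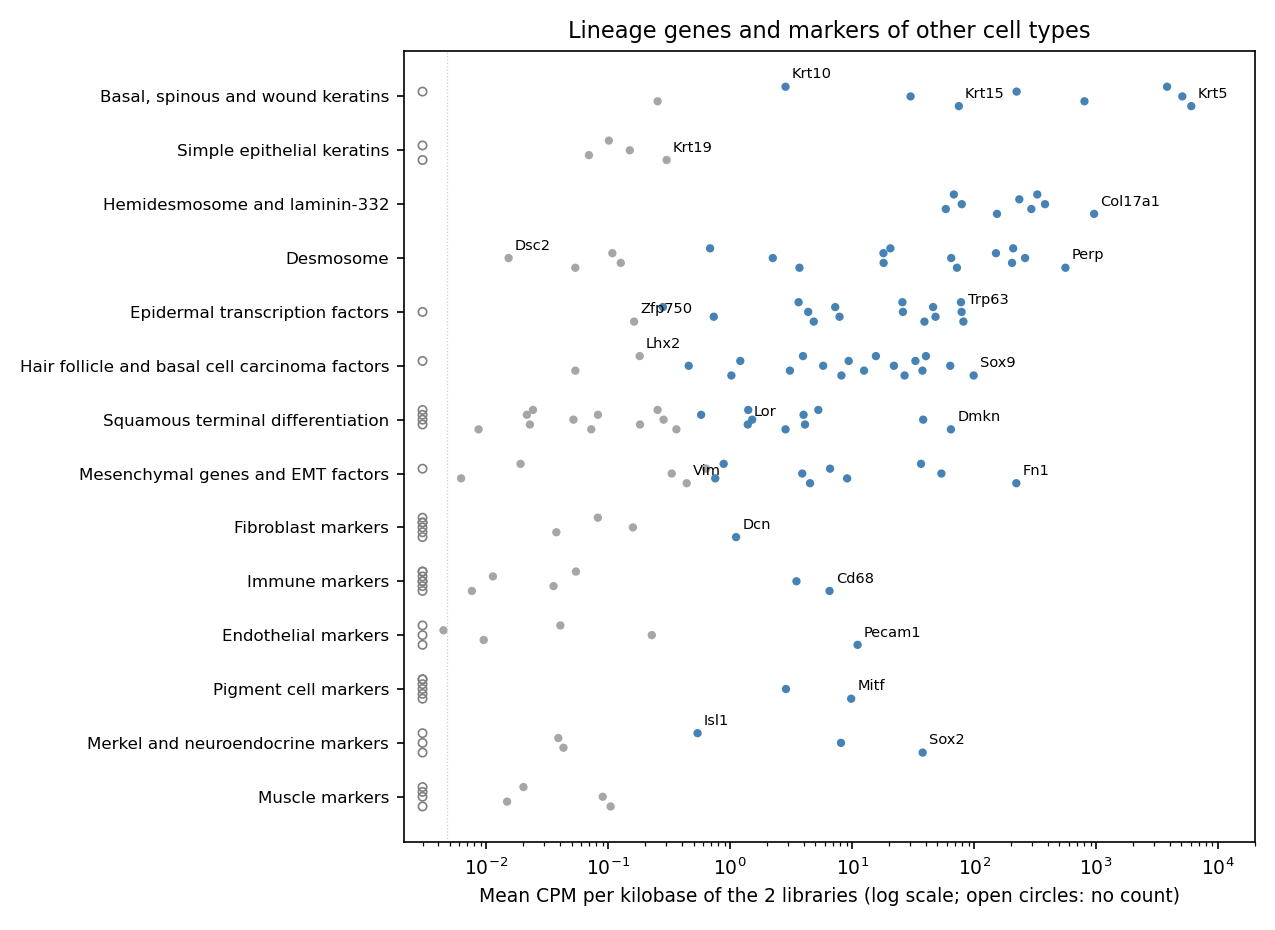
Mean CPM per kilobase of the 2 libraries (log scale) for each member of 14 lists of lineage genes and of markers of other cell types, in blue where expressed, in grey where not, and as open circles at the left edge where no count was found. Hemidesmosome genes lie to the right and Krt5 lies farthest right at 6034, simple epithelial keratins all lie at or below Krt19 (0.301), and most markers of other cells are open circles.

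The Hedgehog pathway was present up to its transducers, while its ligands and its most direct targets were low or not detected. Shh and Dhh had no count and Ihh was at 0.0308 and 0.142 CPM. Of the co-receptors that help ligand binding, Gas1 was at 260 and 240 CPM, Cdon at 173 and 154 CPM and Boc at 36.2 and 38.5 CPM. Smo, the transducer, was at 247 and 247 CPM. Ptch1, the receptor and a target, was lower at 11.6 and 11.2 CPM (1.56 CPM per kilobase against 62.3 for Smo), and Hhip, a ligand-binding target, was not detected. The labels name no allele of Ptch1, and these counts do not separate reads of intact and mutant transcripts.

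The Gli factors had the same order in both libraries. Gli3, mostly a repressor, was highest at 127 and 120 CPM, Gli2, the main activator, was at 10.9 and 10.4 CPM, and Gli1, the activator that is itself a target, at 3.23 and 1.70 CPM. Per kilobase their means were 14.7, 1.59 and 0.676. None of the windows of Gli1, Gli2, Gli3, Ptch1 or Hhip occurs in another gene. All 12 genes of transduction and of the cilium, where the pathway works, were expressed. Prkaca, a catalytic subunit of protein kinase A, led them at 176 and 176 CPM, with Spop at 136 and 142 CPM, Sufu, the main inhibitor of Gli factors, at 68.9 and 71.7 CPM, Gpr161 at 81.0 and 83.4 CPM and Ift122 at 38.3 and 39.7 CPM. Kif7, the ciliary kinesin of the pathway, was at 27 and 24 CPM, Evc at 38.4 and 41.0 CPM, Evc2 at 19.8 and 20.1 CPM, Kif3a at 44.0 and 42.5 CPM, Arl13b at 17.8 and 17.8 CPM, Ift88 at 8.99 and 11.4 CPM and Stk36 at 7.05 and 8.17 CPM. Targets that other pathways and the cell cycle also control were abundant, as Ccnd2 (737 and 757 CPM), Foxm1 (343 and 355 CPM) and Ccnd1 (207 and 210 CPM) show. Bcl2, a survival gene, was at 34.7 and 33.0 CPM and Foxl1 at 3.23 and 2.62 CPM. Mycn, Foxe1 and Nkx2-2 were not detected.

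The promoters of Ptch1 and Hhip are shown because both genes are targets of the pathway. Ptch1 was at 1.56 CPM per kilobase and Hhip was not detected. Any relation of level to CG content was not tested. They are the 150 bases before each start from RefSeq on build GRCm38.p6, at chr13:63565736-63565885 and chr8:80058009-80058158, both on the minus strand. Capitals mark each CG.
Ptch1: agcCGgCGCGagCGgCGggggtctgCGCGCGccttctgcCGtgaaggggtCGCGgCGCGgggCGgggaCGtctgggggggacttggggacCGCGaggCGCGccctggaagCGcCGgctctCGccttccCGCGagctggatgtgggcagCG
Hhip: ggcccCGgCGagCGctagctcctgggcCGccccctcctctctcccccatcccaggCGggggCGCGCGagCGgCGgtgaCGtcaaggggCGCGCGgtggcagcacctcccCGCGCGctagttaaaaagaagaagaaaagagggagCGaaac
Ptch1 holds 25 CG pairs in this window, a number that 2.56% of 18092 promoters reach, and Hhip 18, which 12.1% reach, where the median promoter has 7. Their methylation was not measured in these libraries.

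Genes of TGF-beta signalling were expressed from ligand to target. Of 13 receptors of the family 10 were expressed and none was high. Tgfbr1 and Tgfbr2, which together bind TGF-beta, were at 76.3 and 80.1 and at 104 and 104 CPM. The BMP receptors Bmpr1a and Bmpr2 were at 169 and 160 and at 233 and 217 CPM. Acvr1, Acvr1b and Acvr2a, which are named as activin receptors, were at 46.5 and 50.7, 71.2 and 69.5, and 51.3 and 54.1 CPM. Acvr2b was at 5.67 and 5.17 CPM, Eng (endoglin, best known from endothelium) at 1.94 and 1.73 CPM and Acvr1c at 1.39 and 1.24 CPM. Bmpr1b was at 0.308 and 0.354 CPM, Tgfbr3, the co-receptor betaglycan, at 0.0616 and 0 CPM, and Acvrl1 was not detected. Of 13 ligand and ligand-binding genes 10 were expressed, led per kilobase by the latent binding protein Ltbp4 (360 and 349 CPM) and the activin subunit Inhbb (266 and 262 CPM). Tgfb1 was at 50.9 and 49.8 CPM, Tgfb2 at 86.1 and 76.9 CPM and Tgfb3 at 10.1 and 11.6 CPM, while Nodal and Mstn were not detected. Fst, the activin antagonist follistatin, was at 552 and 573 CPM and was the only high gene of the BMP list. In that list 7 of 15 were expressed (46.7%, near the 47.0% of all entries), and Bmp3, Bmp5 and Grem1 were not detected.

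All 13 Smads and Smad regulators were expressed. Ski, a corepressor of Smads, was the highest at 385 and 375 CPM, Smad4, the shared partner, was at 91.4 and 93.5 CPM, and the receptor-activated Smad2 and Smad3 at 96.1 and 94.5 and at 67.1 and 61.5 CPM. Genes known as targets of the family were expressed in 13 of 13 cases and 6 were high. Thbs1, an activator of latent TGF-beta, led them at 546 CPM per kilobase, followed by Tgfbi (389 and 359 CPM), Id3 (119 and 114 CPM), Col4a1 (667 and 688 CPM) and Pmepa1 (385 and 379 CPM). Levels alone do not show that a pathway is active in these cells.

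Receptor tyrosine kinases were examined in a list of the EGFR family with its ligands and in a list of the others. No gene of the EGFR family list was high, and 2 of the other receptor kinases were. In the EGFR family Erbb2 was at 172 and 165 CPM, Egfr at 170 and 171 CPM and Erbb3 at 49.6 and 47.3 CPM, while Erbb4 was not detected. Its ligands were lower, with Tgfa at 26.1 and 26.9 CPM, Hbegf at 12.5 and 11.5 CPM, Nrg1 at 12 and 13.4 CPM and Epgn at 11.3 and 12.6 CPM. Nrg2 (3.76 and 4.95 CPM), Nrg4 (3.60 and 2.55 CPM) and Ereg (1.94 and 2.05 CPM) were just expressed. Areg was at 0.339 and 0.495 CPM, Egf at 0.216 and 0.566 CPM, Btc at 0.647 and 1.13 CPM, and Nrg3 was not detected. Among other receptor kinases 15 of 28 were expressed (53.6%, near the 47.0% of all entries). They were led per kilobase by Ddr1, an epithelial collagen receptor (423 and 401 CPM), Met, the receptor of hepatocyte growth factor (468 and 461 CPM), Fgfr2 (307 and 297 CPM), Axl (212 and 230 CPM) and Tyro3 (133 and 141 CPM). Pdgfrb, Kit, Kdr, Ret, Ros1 and Ntrk3 were not detected, and Fgfr4, Ddr2, Csf1r, Ror2 and Ntrk2 stayed under 1 CPM. Of 22 Fgf genes Fgf5 (21.7 and 23.8 CPM), Fgf13 (16.6 and 17.4 CPM) and Fgf1 (14.0 and 11.8 CPM) were expressed and 13 were not detected. Of ephrins and their receptors 15 of 22 were expressed (68.2%, against 47.0% of all entries). Highest per kilobase were Efnb2 (343 and 323 CPM), Ephb4 (242 and 248 CPM), Ephb3 (220 and 225 CPM), Efnb1 (178 and 172 CPM) and Efna1 (47.9 and 45.1 CPM).

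All 20 genes from adaptor to ERK were expressed, in a pathway present in most cells. Of the Ras genes Hras was at 174 and 178 CPM and Nras at 246 and 248 CPM, and per kilobase Hras (77.8) stood above Nras (55.4 CPM per kilobase). Their relatives Rras2, Rras and Mras were at 127 and 127, 39.6 and 39.95, and 16.4 and 16 CPM. The phosphatase Ptpn11 (512 and 519 CPM) and the adaptor Grb2 (233 and 234 CPM) led the list per kilobase, with Sos1 at 102 and 103 CPM and Sos2 at 37.3 and 37.0 CPM. Of the Raf kinases Araf was at 35.8 and 35.3 CPM and Braf at 76.4 and 68.9 CPM. Map2k2 was at 172 and 176 CPM, Map2k1 at 64.2 and 63.3 CPM and Mapk3 at 67.6 and 77.6 CPM. The brakes Nf1 and Rasa1 were at 120 and 104 and at 77.2 and 75.4 CPM, and the adaptor Shc1 at 69.1 and 71.8 CPM.

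Genes that ERK induces were lower than the cascade itself. Of 17 in the list 13 were expressed and none was high, with a median of 4.63 CPM per kilobase against 33.2 for the cascade. Jun, which several pathways control, was at 197 and 202 CPM, Ier3 at 33.6 and 37.6 CPM, Spred2 at 63.9 and 62.4 CPM, Phlda1 at 36.3 and 42.3 CPM and Spred1 at 113 and 109 CPM. Feedback genes closer to ERK output were low, with the phosphatase Dusp6 at 16 and 21.2 CPM, Spry2 at 9.21 and 10.7 CPM and Etv4 at 10.6 and 11.8 CPM. Fosl1 was at 1.32 and 1.45 CPM. Dusp4 (0.462 and 0.602 CPM), Spry4 (0.185 and 0.177 CPM) and Fos (0.986 and 0.318 CPM) stayed under 1 CPM in both libraries, and Etv1 was not detected.

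Of 19 Wnt ligand genes 10 were expressed (52.6%, close to the 47.0% of all entries), with a median of 0.71 CPM per kilobase. Wnt4 was at 528 and 510 CPM and high, as was Wnt10a (154 and 160 CPM), and Wnt7b was at 168 and 178 CPM. All 3 are Wnt genes of epidermis and follicle epithelium. Wnt9a (15.8 and 15 CPM) and Wnt7a (13.6 and 15.6 CPM) came next, and Wnt2, Wnt3, Wnt8a, Wnt8b, Wnt9b and Wnt16 were not detected. Of 13 receptor genes 12 were expressed, with Fzd6 at 260 and 258 CPM, Ryk at 181 and 180 CPM, Fzd1 at 168 and 173 CPM, Fzd7 at 173 and 161 CPM and Lrp5 at 169 and 171 CPM, and Fzd10 was not detected. Of inhibitors and targets 8 of 20 were expressed (40%, near the 47.0% of all entries). Their median was 0.0468 CPM per kilobase, against 14.4 for the receptors. Sfrp1, a secreted inhibitor, was at 145 and 137 CPM and Apcdd1 at 41.9 and 39.4 CPM. Znrf3 and Rnf43, which remove Wnt receptors, were at 42.0 and 41.1 and at 14.1 and 14.3 CPM. Axin2, the most general target of beta-catenin, was at 5.11 and 5.56 CPM, Lef1 at 4.50 and 4.32 CPM and Tcf7 at 5.30 and 5.80 CPM. Dkk1, Dkk2, Sfrp2, Sfrp4, Frzb, Wif1, Nkd1 and Sp5 were not detected.

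In the Notch pathway 14 of 20 genes were expressed (70%, against 47.0% of all entries). They were led per kilobase by the glycosyltransferase Rfng (144 and 142 CPM), the ligand Jag2 (247 and 257 CPM), Lfng (118 and 124 CPM), Notch1 (422 and 392 CPM) and Jag1 (182 and 189 CPM). Notch3 was at 2.46 and 2.48 CPM, and Dll4, Hes5 and Heyl were not detected. YAP and TEAD genes were expressed in 15 of 16 cases. Ajuba, a scaffold that restrains the Lats kinases, was at 426 and 435 CPM, Cyr61, a YAP target, at 142 and 151 CPM, Yap1 at 281 and 280 CPM and Amotl2 at 262 and 279 CPM. Ankrd1, another common YAP target, was at 0.0616 and 0.248 CPM. Nuclear hormone receptors were expressed in 10 of 22 cases (45.5%, near the 47.0% of all entries). Rarg, the retinoic acid receptor of epidermis, was at 173 and 178 CPM, Rxra at 213 and 214 CPM, Vdr as given above, Nr1h2 at 65.1 and 69.7 CPM and Nr3c1, the glucocorticoid receptor, at 190 and 191 CPM. Pgr, Pparg and Rxrg were not detected.

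**Figure D3:**
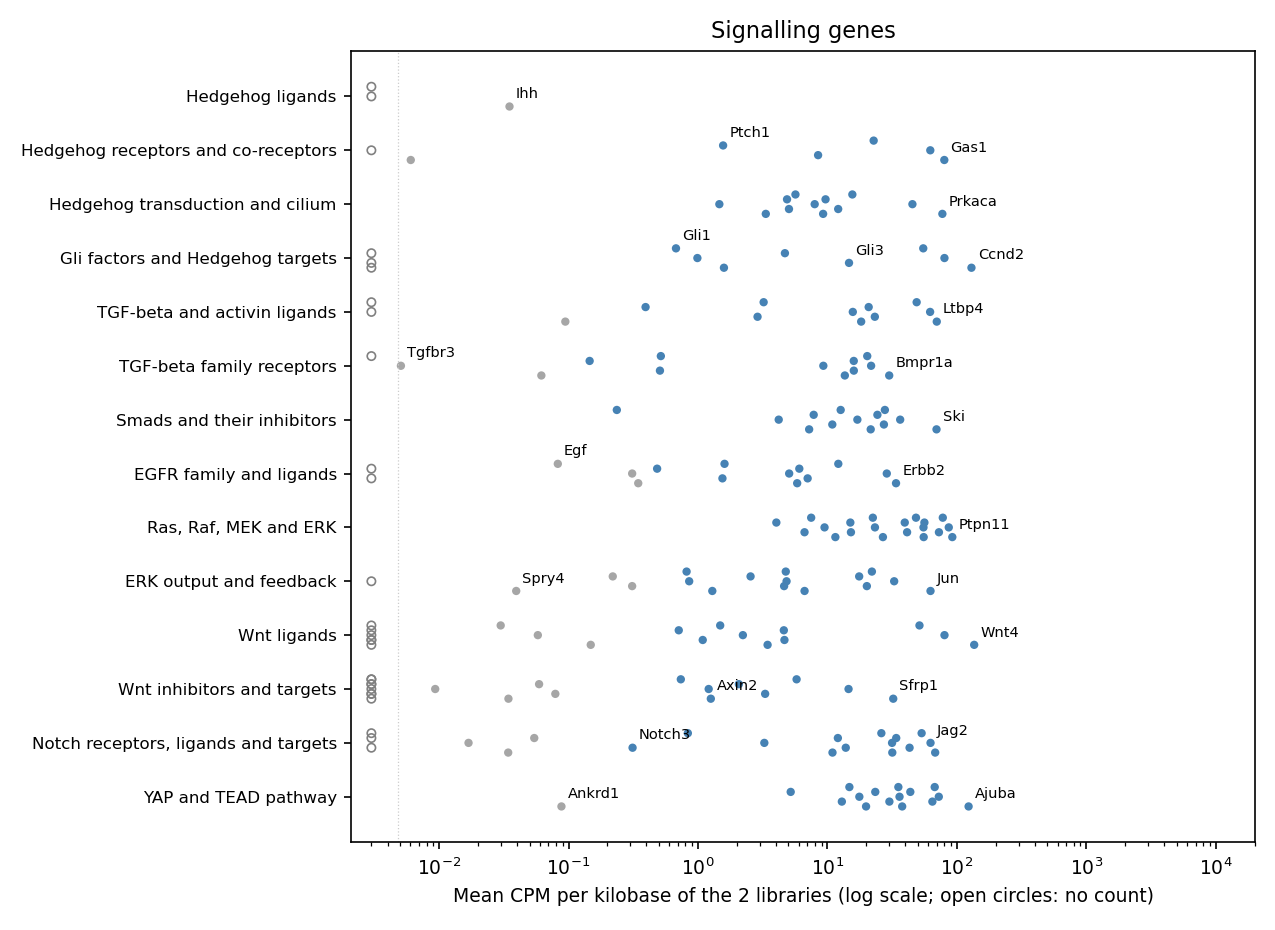
Mean CPM per kilobase of the 2 libraries (log scale) for each member of 14 signalling lists, with symbols as in the plot of lineage genes. Genes of the Ras to ERK cascade lie together at the right, Hedgehog ligands lie at the left, and Gli1 (0.676) and Ptch1 (1.56) lie well below Gas1 (80.0).

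Matrix genes were led by Col17a1, Thbs1 and other genes of the basement membrane and of matrix glycoproteins. The summed level was 10206 and 10209 CPM for the basement membrane list, to which Col17a1 gave 5202 and 5365 CPM, and 8304 and 8171 CPM for the glycoprotein and proteoglycan list. Of 13 basement membrane collagens and proteoglycans 9 were expressed and 7 were high. Behind Col17a1 came Agrn, agrin (1018 and 975 CPM), Col4a2 (763 and 774 CPM), Col18a1 (577 and 595 CPM) and Col4a1 (667 and 688 CPM), and Col7a1, the anchoring fibril collagen, was at 673 and 659 CPM. Hspg2, perlecan, was at 1019 and 865 CPM. Nid1, nidogen 1, which links laminin to collagen IV, was not detected, and Nid2 was at 0.277 and 0.212 CPM. Col4a4 and Col4a6 stayed under 1 CPM. Of 15 fibrillar and associated collagens 5 were expressed (33.3%) and none was high. Col1a1, Col1a2 and Col3a1, the main collagens of dermis, were at or near 0 as given above, and Col6a3 was not detected. Col12a1, which lies on fibril surfaces, was the exception at 543 and 488 CPM, with Col11a1 at 116 and 126 CPM and Col16a1 at 45.4 and 47.2 CPM. Col6a1 was at 5.61 and 4.78 CPM and Col5a1 at 1.42 and 1.63 CPM. Over all 44 collagen genes 14 were expressed (31.8%, against 47.0% of all entries) and 14 were not detected. Col8a1 was a further high member at 498 and 484 CPM.

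Laminin chains were expressed in 7 of 11 cases. Besides the chains of laminin-332 these were Lama5 (639 and 582 CPM), Lamb1 (251 and 251 CPM), Lamc1 (295 and 301 CPM) and Lamb2 (37.6 and 38.5 CPM). Lama1 and Lama4 were not detected, and Lama2 and Lamc3 were under 1 CPM. Among matrix glycoproteins and proteoglycans 16 of 27 were expressed (59.3%, against 47.0% of all entries). Thbs1 and Fn1 were joined by Sparc, a collagen-binding protein (781 and 775 CPM), Tnc, the tenascin of wounds and tumours (1335 and 1309 CPM), and Tgfbi. Eln, Lum, Vtn, Acan and Frem2 were not detected, Fbn1 was at 0.0616 and 0 CPM, and Postn and Bgn were under 1 CPM, whereas Fbn2 was at 250 and 194 CPM. Fbn2, with a length of 10413 bases, was among the genes with the larger differences between libraries. Enzymes of collagen processing were expressed in 9 of 12 cases, led by P4hb (1440 and 1424 CPM) and the collagen chaperone Serpinh1 (371 and 373 CPM). Plod3, P4ha2 and Loxl4 followed at 160 and 159, 66.6 and 69.1, and 151 and 164 CPM. The crosslinking enzymes Lox (0.462 and 0.566 CPM), Loxl1 (0.0616 and 0.0708 CPM) and Loxl2 (0.0616 and 0.248 CPM) were under 1 CPM.

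Of 23 metalloproteases 8 were expressed (34.8%) and Mmp14, a membrane-bound collagenase, was the only high one at 247 and 254 CPM, ahead of Mmp15 (72.5 and 74.3 CPM) and Mmp11 (28.3 and 22.4 CPM). Mmp2 was at 7.48 and 7.54 CPM, Mmp24 at 10.8 and 11 CPM, Mmp9 at 0.123 and 0 CPM, and Mmp3, Mmp10 and Mmp13 were under 1 CPM. In the Adam and Adamts family 14 of 52 were expressed, with Adamts1 (537 and 573 CPM) and Adam15 (166 and 158 CPM) leading Adam9, Adam17 and Adam10 (95.1 and 96.1, 70.2 and 66.2, and 67.0 and 69.9 CPM). In the list of protease inhibitors and the plasminogen system 12 of 16 were expressed. Its highest genes stood above the highest proteases per kilobase. Cst3 was at 754, Timp3 at 483, Timp2 at 392 and Serpinb5 at 144, against 114 for Adamts1 and 66.1 for Mmp14. The median of the list was only 6.76 CPM per kilobase, against 0.105 for metalloproteases and 0.0115 for Adam and Adamts genes. Which proteases these genes act on was not examined. Timp3 was at 2269 and 2246 CPM, Timp2 at 1412 and 1424 CPM, Cst3, cystatin C, at 591 and 602 CPM and Serpinb5, maspin, at 392 and 381 CPM. Timp1 was low at 4.28 and 4.99 CPM, and Timp4 and Reck were not detected. Plau, the urokinase gene, was at 31.6 and 35.5 CPM.

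Among integrins 7 of 18 alpha (38.9%) and 6 of 8 beta chains (75%) were expressed, against 47.0% of all entries. Itga3 and Itga6, with Itgb1 and Itgb4, are receptors of laminin and were the high members. Itgav was at 202 and 196 CPM, Itga2 at 149 and 142 CPM, Itga5, the fibronectin receptor chain, at 45.7 and 47.4 CPM, and Itgb5, Itgb8 and Itgb6 at 212 and 207, 29.7 and 29.1, and 35.5 and 33.2 CPM. Itga9, Itgad and the leukocyte chain Itgb2 were not detected.

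**Figure D4:**
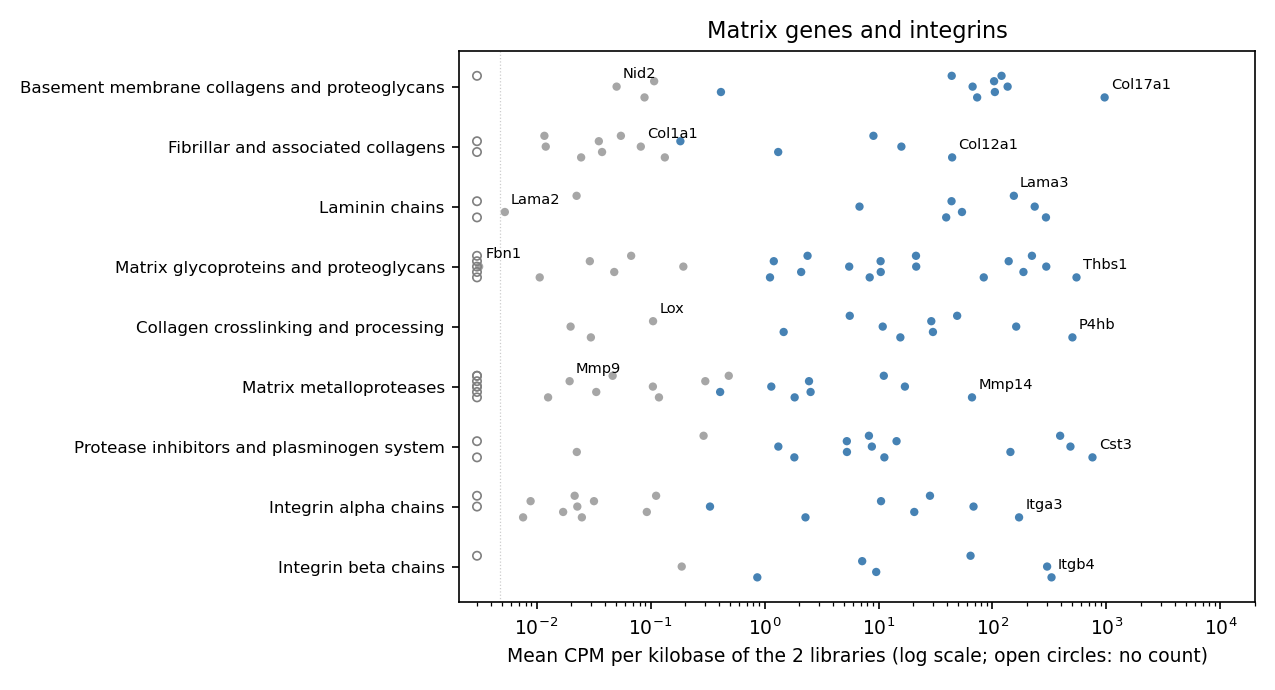
Mean CPM per kilobase of the 2 libraries (log scale) for each member of 9 lists of matrix genes and integrins, with symbols as in the plot of lineage genes. Of the basement membrane list 9 of 13 members are blue, with Col17a1 farthest right at 964, most fibrillar collagens lie at the left with Col1a1 at 0.0821, and Col12a1 stands apart from them at 44.3.

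Cell cycle genes were expressed throughout. All 18 proliferation genes were expressed and 9 were high, led per kilobase by Top2a, a topoisomerase of dividing cells (868 and 905 CPM), Rrm2 (221 and 225 CPM), Plk1 (194 and 196 CPM), Ccna2 (289 and 303 CPM) and Pcna (104 and 107 CPM). Mki67, which encodes the antigen Ki-67, was at 340 and 316 CPM. Of cyclins, kinases and inhibitors 17 of 18 were expressed, led by Cdk4 (364 and 371 CPM), Ccnd2 and Cdkn2a. Cdkn2a, the tumour suppressor locus of p16 and p19Arf, was at 112 and 112 CPM, and these counts do not separate its products. Cdkn1c was at 0.431 and 0.354 CPM. All 16 genes of the p53 and tumour suppressor list were expressed, with Trp53 at 202 and 218 CPM, Mdm2 at 76.4 and 72.9 CPM and Bax at 42.5 and 45.2 CPM. Myc was at 130 and 136 CPM and led a network of which 9 of 10 were expressed, Mycn being the exception. Among oncofetal genes Igf2bp1 and Igf2bp3, RNA-binding proteins of embryos and tumours, were at 82.8 and 90.3 and at 61.0 and 68.4 CPM. H19 (0.123 and 0.142 CPM) and Igf2 (0.185 and 0.425 CPM) were under 1 CPM, and Lin28a, Pou5f1, Sall4 and Dppa3 were not detected.

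Hox genes keep a record of body position in skin. Of 39 Hox genes 22 were expressed (56.4%, against 47.0% of all entries) and 7 were not detected. They were led by Hoxb9 (95 and 98.1 CPM), Hoxd8 (51.7 and 53.4 CPM), Hoxd9 (42.2 and 45.2 CPM), Hoxc13, a factor of hair and nail (38.4 and 37.6 CPM), and Hoxa9 (31.6 and 32.5 CPM). In the list of class I and antigen presentation genes 9 of 17 were expressed (52.9%, close to the 47.0% of all entries), with a median of 0.637 CPM per kilobase. B2m was at 88.4 and 88.0 CPM, Tapbp at 268 and 284 CPM, H2-D1 at 49.5 and 50.03 CPM and H2-K1 at 16.7 and 17.3 CPM, while the immunoproteasome gene Psmb8 was not detected and Psmb9 was at 0.339 and 0.389 CPM. Among 17 interferon-stimulated genes 12 were expressed and none was high, with Ddx58 at 74.0 and 74.7 CPM and Isg15 at 6.19 and 4.32 CPM. Cytokines were led by Cxcl16 (50.7 and 53.3 CPM), Cxcl14 (56.2 and 50.8 CPM) and Cx3cl1 (54.8 and 55.3 CPM), and Il1b and Cxcl2 were not detected. The alarmins S100a8 and S100a9, which damaged and squamous epidermis makes, were not detected either, whereas S100a6 (541 and 521 CPM), S100a10 (358 and 363 CPM) and S100a11 (169 and 170 CPM) were high.

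Xist, the RNA of the inactive X chromosome, was at 0.154 and 0 CPM, and the Y-linked genes Ddx3y, Uty, Eif2s3y and Kdm5d were not detected.

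Most genes of the housekeeping lists were expressed. Of 24 actin cytoskeleton genes 23 were expressed and 21 high, with Actb at 2677 and 2751 CPM, and all 23 redox genes were expressed. In glycolysis 17 of 18 were expressed, with Pkm at 945 and 953 CPM, Aldoa at 577 and 587 CPM and Ldha at 464 and 454 CPM. Gapdh, an enzyme of the same pathway and a usual reference gene, was at 7.95 and 8.28 CPM and ranked 9639 by CPM. It was singled out after its value was seen. Of the 50-base windows of its transcript 82.5% also occur in other annotated genes, of which there are 222, among them 213 pseudogenes. Pgk1, with 68.0% of windows shared, was at 54.3 and 55.8 CPM. Of 85 genes in the list of cytosolic ribosomal proteins, which also holds paralogs such as Rpl10l, Rpl3l and Rpl39l, 80 were expressed. The 5 others were Rpl10l, which was not detected, Rpl3l (0 and 0.0708 CPM), Rps13 (0.493 and 0.566 CPM), Rpl17 (0.862 and 0.885 CPM) and Rpl29 (1.51 and 0.708 CPM). Rpl8, with 7.86% of windows shared, was at 886 CPM per kilobase and Rpl3, with 85.6% shared, at 2.32 CPM per kilobase. The 41 ribosomal protein genes with at least 50% of windows shared had a median of 20.5 CPM per kilobase and the other 44 one of 58.5. Across these 85 genes Spearman's rho of shared sequence and level was -0.33, a description over genes that share libraries and a counting method. The relation is not strict, as Rplp1 (60.0% shared) stood at 604 and Rpl41 (53.1% shared) at 1434 CPM per kilobase. Among the 11495 expressed entries that could be examined, 8343 (72.6%) shared no window and 221 (1.92%) shared at least 50%. Whether sharing set any of these levels was not tested, and how the authors counted reads that match several genes is not given in the sources used here.

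**Figure D5:**
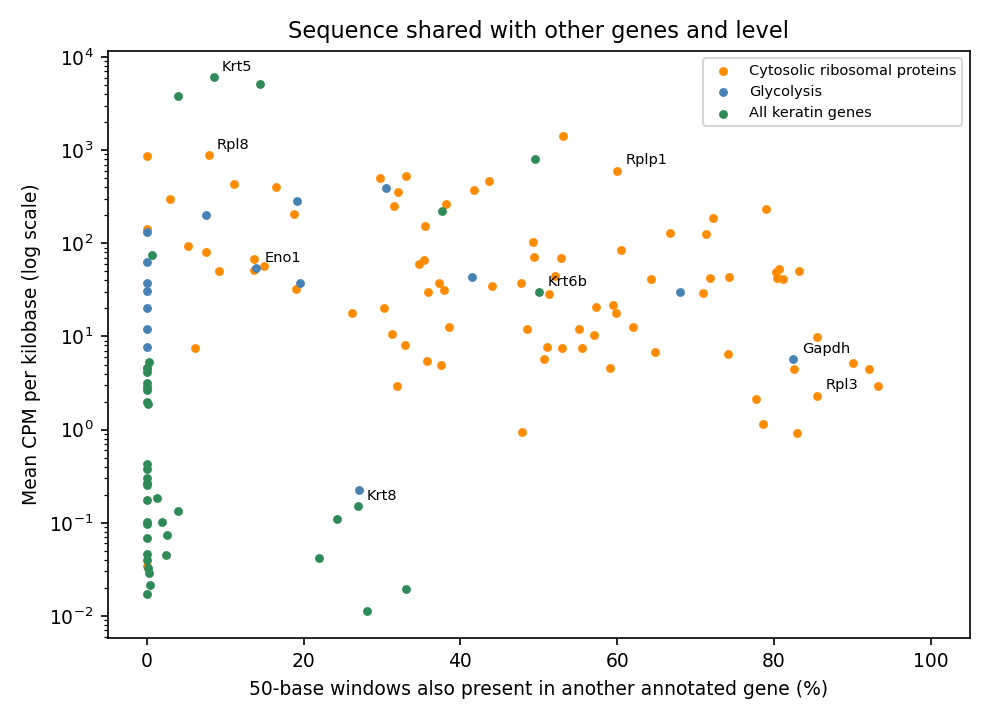
Mean CPM per kilobase of the 2 libraries (log scale) against the percentage of 50-base windows of a gene's transcript that also occur in another annotated gene, for ribosomal protein, glycolysis and keratin genes with at least 1 count. Gapdh (82.5% shared, 5.74 CPM per kilobase) and Rpl3 (85.6%, 2.32) lie at the lower right, Rpl8 (7.86%, 886) at the upper left, and Krt8 (26.9%, 0.150) is low at a moderate share.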

How the data were processed

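Estimated counts and a length per entry were taken from the table that the authors deposited, without normalization. The submitters' processing notes name TopHat, HOMER, DESeq2 and mm9, the mouse genome build. Tool versions, strandedness, filters and the handling of multiply matching reads were not given in the sources used here. All values were multiples of 0.5. Of 24909 entries 2 were dropped because an entry with the same symbol had more counts, and 24 symbols that read as dates are not named.

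CPM used the library total of all entries, and CPM per kilobase the deposited length; ranks per kilobase need at least 200 bases (23592 entries). Python 3.11.15, pandas 2.3.3 and, for TMM factors, edgeR 4.0.16 in R 4.3.3 were used, and the scripts were checked on simulated data. Shared sequence is the percentage of 50-base windows of the GENCODE M21 transcript nearest in length that occur exactly in another gene that does not overlap it. Of 24907 symbols 72.6% matched a RefSeq promoter.

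The 65 gene lists and the rule for naming genes were chosen with earlier results of these data known. The rule takes the 20 highest entries by each measure, in each list the 5 highest per kilobase and members not detected or under 1 CPM, all members of the Hedgehog, TGF-beta receptor, Ras, EGFR family and keratin lists, and the 5 entries whose libraries differ most. Long lists are given by counts, and some further members were named after their values were seen. Results for some genes are not reported here.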

Additional observations from a re-analysis of the deposited data

How the results depend on the processing

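No paired analysis was possible because the account covers 1 group and makes no test. The number of expressed entries (11694) was 11813 in replicate 2 alone and in replicate 1 alone, 12200 at a minimum of 0.5 CPM, 10179 at 5 CPM, 11847 at 1 TPM and 11473 when entries with at least 50% shared windows were left out, an alternative chosen after seeing the data. TMM factors and leaving Rn45s out of the total left it at 11694. The number of entries with no count was 9571 to 9817 in single libraries. The share of counts of the 50 most abundant entries was 11.97% to 12.3% in single libraries and 11.6% without Rn45s. The number among the 50 highest by both measures was 25 with no minimum length and 26 to 27 in single libraries. Counts of expressed list members that moved over 1.5 times were these. At 5 CPM the squamous list fell to 4, fibroblast markers to 0, fibrillar collagens to 3, Adam and Adamts genes to 7, Hox genes to 14 and interferon-stimulated genes to 6. At 0.5 CPM fibroblast and endothelial markers stood at 2 each and Fgf genes at 5. Without replicate 1 endothelial markers, and without replicate 2 fibroblast markers, stood at 2. Ribosomal proteins stood at 41 when genes with shared windows were left out. TPM were 2.71 to 2.73 times CPM per kilobase for 117 named genes above 0, which keeps their order. With 2 libraries, levels near 1 CPM rest on few counts, and genes at or under the limit of 0 counts cannot be ordered.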
